A study of Mus musculus with 6 samples.

Results

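Immediate early transcription factor genes were examined in cultured cells of the embryonic mouse cortex with and without knockdown of Ybx1, an RNA-binding protein that reads 5-methylcytosine in mRNA. The group held 10 genes, Fos, Fosb, Fosl2, Jun, Junb, Egr1, Egr3, Nr4a1, Arc and Ier2, of 17920 genes in the table. They were chosen by name as genes induced by activity and growth factors, and they were selected on earlier results of the same comparison, in which Fos had stood among the largest decreases. The KD and WT values of these 10 genes are therefore given as a description. No P value is printed for any of them, and how many passed the test is stated without being read as support. All 10 were in the table, all 10 passed the filter on low counts that left 13669 genes, and all of their counts were whole numbers.

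There were 3 control libraries (WT in the labels, Ctrl in the data columns) and 3 knockdown libraries (KD), all from E13.5, the embryonic day. According to the study's methods, dissociated cortical cells were infected with a lentivirus that carried a short hairpin RNA against Ybx1 or a control hairpin, and both groups were selected with puromycin, which kills cells that lack the virus. The series text speaks of a deletion. The labels give the tissue as brain, and the sample titles name the cortex. Which of the study's hairpins the KD libraries carried, the strain, and how many embryos made up a culture are not given in the sources used here. The methods describe the replicates as separate experiments, and P values measure the spread between these 6 libraries.

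Immediate early genes are transcribed within minutes of a stimulus, before any new protein is made. Calcium entry and growth factors act through the ERK kinases and the transcription factors CREB, SRF and their partners, which already sit on these promoters, and the mRNAs are short-lived. In neurons the genes report recent activity, and in dividing progenitors they report growth factor signalling. Fos, Fosb and Fosl2 proteins pair with Jun and Junb proteins to form the AP-1 transcription factor, Egr1 and Egr3 are zinc finger transcription factors, Nr4a1 is an orphan nuclear receptor, Arc is a synaptic protein and Ier2 a nuclear regulator of transcription.

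Promoters are shown for Fos, Fosb and Nr4a1, whose KD levels were furthest below WT, and for Jun, whose KD mean was above WT. Each line gives the 250 bases before the start of transcription, 5′ to 3′ on the gene's strand, from RefSeq for GRCm38.p6, and 6 of the 10 genes (these 4, Fosl2 and Junb) matched an entry. Capitals mark the short form of the cAMP response element bound by CREB, TGACG on either strand, and the TATA box, TATAAA. The windows of Nr4a1 and Fosl2 belong to starts inside the annotated genes, and that of Fosb overlaps the 5′ end of the annotated gene by a few bases.
Fos (chr12:85473640-85473889, plus strand): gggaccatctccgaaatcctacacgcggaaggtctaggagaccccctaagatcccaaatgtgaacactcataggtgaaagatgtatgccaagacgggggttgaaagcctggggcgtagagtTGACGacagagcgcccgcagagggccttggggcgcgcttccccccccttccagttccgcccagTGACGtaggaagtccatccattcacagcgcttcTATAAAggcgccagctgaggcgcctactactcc
Fosb (chr7:19310046-19310295, minus strand): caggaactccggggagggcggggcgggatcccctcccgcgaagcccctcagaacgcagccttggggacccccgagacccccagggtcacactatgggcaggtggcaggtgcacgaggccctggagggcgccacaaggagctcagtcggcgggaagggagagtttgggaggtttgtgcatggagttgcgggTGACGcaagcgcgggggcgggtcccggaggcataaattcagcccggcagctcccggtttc
Nr4a1 (chr15:101266596-101266845, plus strand): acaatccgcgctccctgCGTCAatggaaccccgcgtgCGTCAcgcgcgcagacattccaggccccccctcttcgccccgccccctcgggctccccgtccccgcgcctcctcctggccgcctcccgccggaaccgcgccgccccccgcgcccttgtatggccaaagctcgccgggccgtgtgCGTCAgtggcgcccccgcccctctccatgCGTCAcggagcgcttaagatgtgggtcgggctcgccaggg
Jun (chr4:95052223-95052472, minus strand): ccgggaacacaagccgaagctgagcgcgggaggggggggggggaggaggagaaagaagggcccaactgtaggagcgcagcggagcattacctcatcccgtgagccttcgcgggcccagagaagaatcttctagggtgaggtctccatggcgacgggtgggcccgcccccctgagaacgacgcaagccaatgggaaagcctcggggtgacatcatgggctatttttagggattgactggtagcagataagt

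The short element was present in 4 of the 6 promoters (Fos, Fosb, Junb and Nr4a1) and in 17.8% of all 32851 promoter windows of this length. Nr4a1 held it 4 times, Fos 2 times, and Fosb and Junb once each. The first copy in Fos began 129 bases and the second 66 bases before the start, and that of Fosb began 60 bases before it. The full element TGACGTCA, in 1.55% of all windows, the SRF site known as the CArG box, in 1.47%, and the AP-1 site (TGACTCA or TGAGTCA), in 4.46%, were found in 0 of the 6. The TATA box was found in Fos alone of these 6, 33 bases before the start, against 12.4% of all windows. The Egr site (GCGTGGGCG or GCGGGGGCG), in 3.06% of all windows, was present in Fosb, Fosl2 and Nr4a1, where each copy overlapped a GC box (GGGCGG). The GC box itself was present in 5 of the 6, all but Junb, and in 32.7% of all windows. All motifs were searched on both strands, as exact matches within these 250 bases. Sites farther upstream or with other letters were not searched for.

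Library totals lay between 16294635 and 16497505 estimated counts. Ybx1 (Entrez Gene 22608) was at 618, 615 and 653 CPM (counts per 1000000, after TMM normalisation) in WT replicates 1, 2 and 3 and at 98.3, 92.2 and 159 CPM in KD. By edgeR's quasi-likelihood test this was a change of -2.43 on the log2 scale (SE 0.18) with an adjusted P of 0.000182. KD replicate 3 kept the most, 25.3% of the WT mean against 15.6% and 14.7%. All 11 cortical progenitor and all 10 neuron markers were above 1 CPM on average, whereas 0 of 9 microglia, 1 of 6 endothelial, 4 of 8 mesenchymal and 1 of 7 erythroid markers were. The progenitor markers summed to between 1390 and 1470 CPM in WT and between 1570 and 1810 CPM in KD, and the neuron markers to between 6180 and 6950 CPM and between 6140 and 7040 CPM. Of the progenitor markers 4 of 11 were higher at an adjusted P under 0.05 by edgeR and 0 lower (36.4% called, beside 24.0% of all genes). All 11 were above 0, with a median log2 fold change of 0.25. Of the 10 neuron markers 2 were higher (Dcx and Neurod2) and 1 lower (Stmn2), or 30% called. Of 8 glial markers 7 were tested, and 6 were below 0 with a median of -0.27. Of these 1 passed the test (14.3% called), Olig1 of the oligodendrocyte lineage, which was lower (-0.54, adjusted P = 0.0105). The glial markers summed to between 437 and 566 CPM in WT and between 389 and 471 CPM in KD. The 6 markers of the GABAergic lineage summed to between 644 and 984 CPM in WT and between 672 and 1010 CPM in KD. Of these 1 was higher by edgeR (16.7% called), Dlx2, at 30.5 CPM on average in WT and 71.5 CPM in KD (log2 fold change 1.23, adjusted P = 0.000959). In bulk RNA, fewer cells of a type and less RNA per cell cannot be told apart, and the part of these cell types in the levels below was not tested.

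Among the Fos family, Fos itself (Entrez Gene 14281, chromosome 12, positions 85473890 to 85477273 of GRCm38, plus strand) was at 12.4, 18.1 and 7.6 CPM in WT replicates 1, 2 and 3 and at 3.07, 4.88 and 3.94 CPM in KD. All KD values were below all WT values. The means were 12.7 ± 5.25 and 3.96 ± 0.908 CPM (SD, n = 3), so KD kept 31.2% of the WT level, with a log2 fold change of -1.68 (SE 0.31). Fosb (chromosome 7, 19302696 to 19310051, minus strand) was at 1.64, 5.86 and 1.31 CPM in WT and 0.781, 1.4 and 1.52 CPM in KD, from counts of 27, 95 and 21 and of 13, 23 and 25. WT replicate 2 alone was high, and the other 5 libraries overlapped. The log2 fold change of Fosb was -1.25 (SE 0.57), and -0.26 without WT replicate 2. Fosl2 (chromosome 5, 32135801 to 32157842, plus strand), the most abundant of the 3 per transcript length, was at 58.7, 90.6 and 64.3 CPM in WT and 41, 70 and 70.4 CPM in KD. KD replicate 1 was the lowest library and the other KD libraries lay within the WT range. Its log2 fold change was -0.24 (SE 0.21), and -0.02 without KD replicate 1.

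Jun and Junb supply the partner subunit of AP-1. Jun (chromosome 4, 95049034 to 95052222, minus strand) was at 85.8, 94.4 and 109 CPM in WT and 105, 107 and 110 CPM in KD. The KD libraries were close together, near the highest WT library, with a log2 fold change of 0.15 (SE 0.08). Junb (chromosome 8, 84974484 to 84978718, minus strand) was at 8.44, 12.8 and 6.66 CPM in WT and 3.55, 7.93 and 6.79 CPM in KD. KD replicate 1 was the lowest and WT replicate 2 the highest, with overlap between the groups and a log2 fold change of -0.61 (SE 0.31), or -0.31 without WT replicate 2. In GENCODE M21 the 3′ end of Junb overlaps Prdx2 on the opposite strand, and an antisense gene, Junos, overlaps Jun. Whether counting used the strand is not given in the sources used here, so such reads cannot be told apart.

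Egr1 (chromosome 18, 34859823 to 34864984, plus strand) was at 59.7, 53.9 and 38.4 CPM in WT and 28.3, 37.3 and 39.6 CPM in KD. WT replicate 3 lay below KD replicate 3, and the other KD libraries were below all WT libraries. KD kept 69.3% of the WT mean, a log2 fold change of -0.53 (SE 0.17). Egr3 (chromosome 14, 70077203 to 70082614, plus strand) was at 10.6, 13 and 16.9 CPM in WT and 8.18, 9.21 and 13.9 CPM in KD. In both groups replicate 3 was high and replicate 1 low, and the groups overlapped, with a log2 fold change of -0.37 (SE 0.22), or -0.18 without WT replicate 3.

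Nr4a1 (chromosome 15, 101254269 to 101274795, plus strand) was at 16.9, 29 and 16.9 CPM in WT and 6.67, 11.1 and 12.1 CPM in KD. As for Fos, all KD values were below all WT values. KD kept 47.5% of the WT mean, with a log2 fold change of -1.08 (SE 0.26), and -0.77 without WT replicate 2. Arc and Ier2 had the smallest differences. Arc (chromosome 15, 74669083 to 74672570, minus strand), which encodes a capsid-like protein that regulates synaptic receptors, was at 6.19, 8.02 and 7.16 CPM in WT and 4.99, 7.5 and 7.27 CPM in KD. Ier2 (chromosome 8, 84661331 to 84662852, minus strand) was at 7.04, 10 and 7.22 CPM in WT and 5.95, 8.79 and 8.61 CPM in KD. In both genes KD replicate 1 was lowest and the groups overlapped. The log2 fold changes were -0.11 (SE 0.18) for Arc and -0.06 (SE 0.19) for Ier2, and these turned to 0.05 for Arc without KD replicate 1 and to 0.13 for Ier2 without WT replicate 2.

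**Figure D1:**
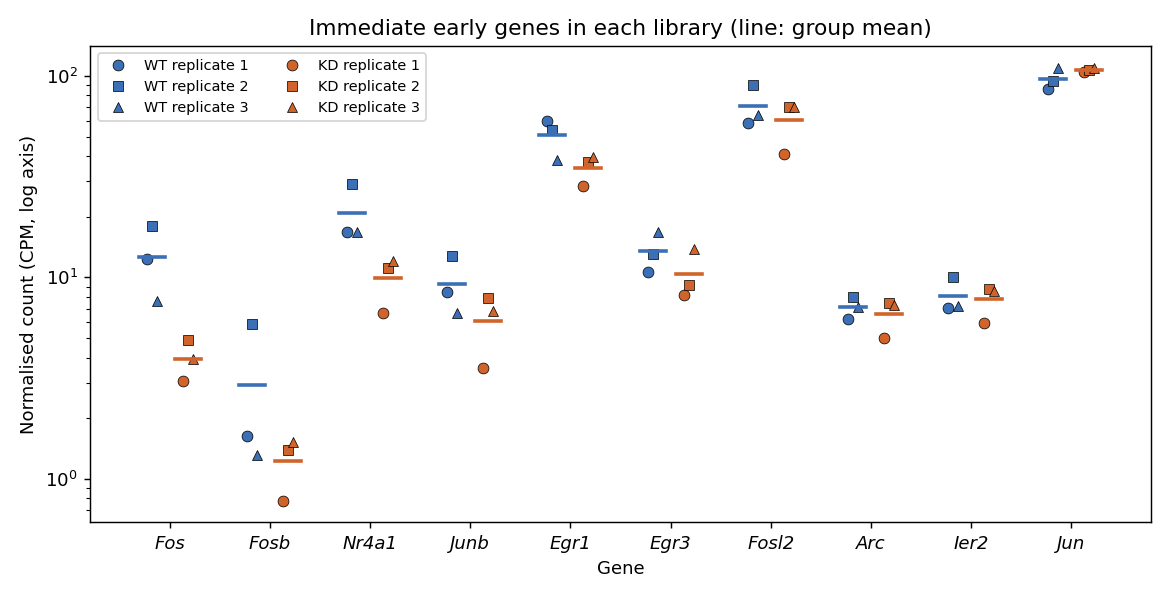
Normalised counts (CPM, log axis) of the 10 genes in each library, ordered by fold change, with WT in blue, KD in orange, a marker shape for each replicate number and a line at each group mean. For Fos and Nr4a1 all KD points lie below all WT points, and for the other 8 genes the groups overlap.

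Of the 10 genes, 9 had a log2 fold change below 0 and 1, Jun, above it, with a median of -0.45 against -0.00 over all 13669 genes tested. In edgeR's quasi-likelihood test, 3 of the 10 (Fos, Nr4a1 and Egr1) were lower at an adjusted P under 0.05 and 0 were higher, where 11.9% of all genes were lower, 12% higher and 24.0% called in either direction. KD libraries lay wholly below WT for 2 of the 10 genes and wholly above for 0, against 20.6% and 21.0% of all genes. Because the same comparison chose the genes, nothing is read from these counts. Egr1 was near the threshold and was not past it with library totals alone, with limma-voom, on TPM, or in 5 of the 6 fits that left out 1 library (all but WT replicate 3), and its log2 fold change was -0.26 without both replicate 1 libraries. The replicate number as a block gave 2470 of all 13669 genes lower and 2539 higher. With it 7 of the 10 were lower (Fos, Fosb, Nr4a1, Junb, Egr1, Egr3 and Fosl2) and Jun was higher. The count of lower genes was 1, Fos, without WT replicate 2 and without KD replicate 2, where 797 of 13791 and 849 of 13804 genes tested were lower. It was 0 without both replicate 2 libraries, where 93 of 13712 were lower. In that last fit 2 of the 10 had an unadjusted P under 0.05, and the share of all genes at that threshold is not given here. With all 6 libraries the count of higher genes was also 0 at an unadjusted P under 0.05. It was 0 by DESeq2 and limma-voom at an adjusted P. The count higher was 1 (Jun) without WT replicate 3, where 1612 of 13805 genes tested were higher.

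**Figure D2:**
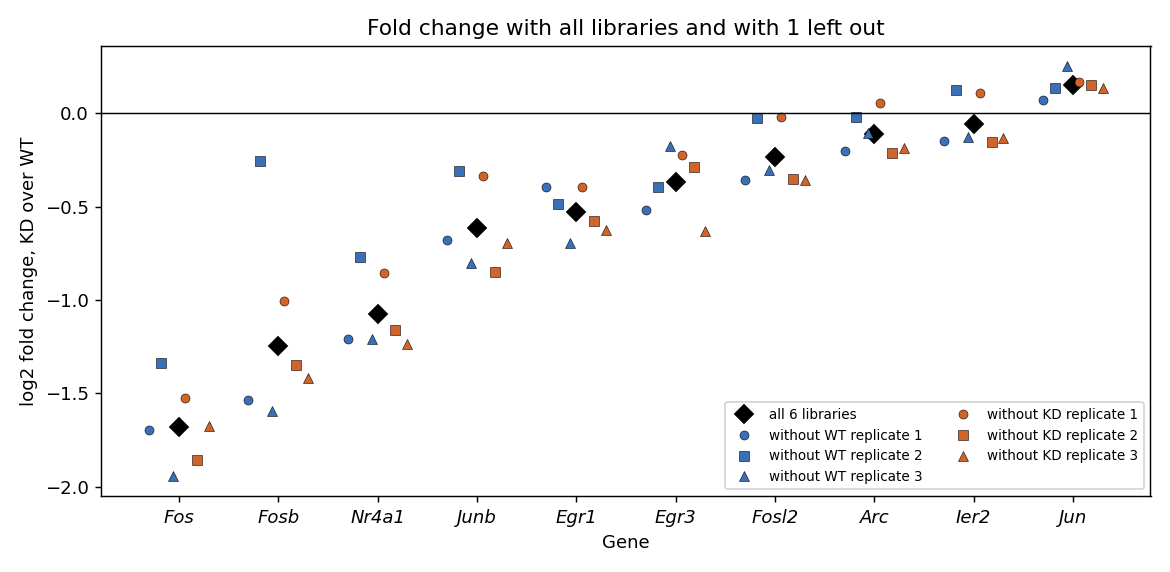
Log2 fold change of KD over WT for each gene with all 6 libraries (black diamond) and with 1 library left out (coloured points, with the shape giving its replicate number). Fos lies between -1.94 and -1.34 in these fits, Fosb moves to -0.26 without WT replicate 2, and Arc and Ier2 cross 0.

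Levels were compared between genes in TPM, which divides by transcript length. In WT, Jun was highest at 66.3 ± 8.83 TPM (SD, n = 3), followed by Egr1 at 36.2 ± 7.61, Fosl2 at 25.4 ± 5.8, Nr4a1 at 18.3 ± 6.11 and Fos at 13.8 ± 5.57 TPM. Ier2, Junb, Egr3 and Arc came next at 13.1 ± 2.53, 11.9 ± 3.92, 7.3 ± 1.71 and 5.12 ± 0.635 TPM, and Fosb was lowest at 1.67 ± 1.44 TPM. Neighbours in this order were separated in all libraries only between Jun and Egr1, between Egr3 and Arc, and between Arc and Fosb. In KD, Jun at 76.2 ± 0.954 TPM and Fosb at 0.733 ± 0.229 TPM kept the ends of the order, and Fos, at 4.5 ± 1.05 TPM, stood below Arc, at 4.91 ± 1.02 TPM, with overlapping libraries.

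Since same-numbered libraries deviated together across the transcriptome, KD was also compared with WT within each replicate number. In replicates 1 and 2 KD was below WT for 9 of the 10 genes, all except Jun. Fos in KD was at 24.8% of its WT partner in replicate 1, 27% in replicate 2 and 51.9% in replicate 3. Nr4a1 was at 39.4%, 38.3% and 71.2%, and Egr1 at 47.4%, 69.3% and 103%. In replicate 3 only Fos, Nr4a1 and Egr3 were below WT. For Fosb, with the fewest counts, the log2 ratios were -1.07, -2.06 and 0.21, with counting errors of 0.49, 0.34 and 0.43. The ratio was highest in replicate 3 for 9 of the 10 genes, against 36.6% of all genes tested and 59.8% of the genes called lower in KD, and the difference was smallest in size there for 9 of the 10 as well, against 44.7% of all genes. Replicate 3 is also the number in which the most Ybx1 was left, 24.3% of its WT partner against 15.9% and 15%. Whether the remaining Ybx1 had a part in this was not tested.

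**Figure D3:**
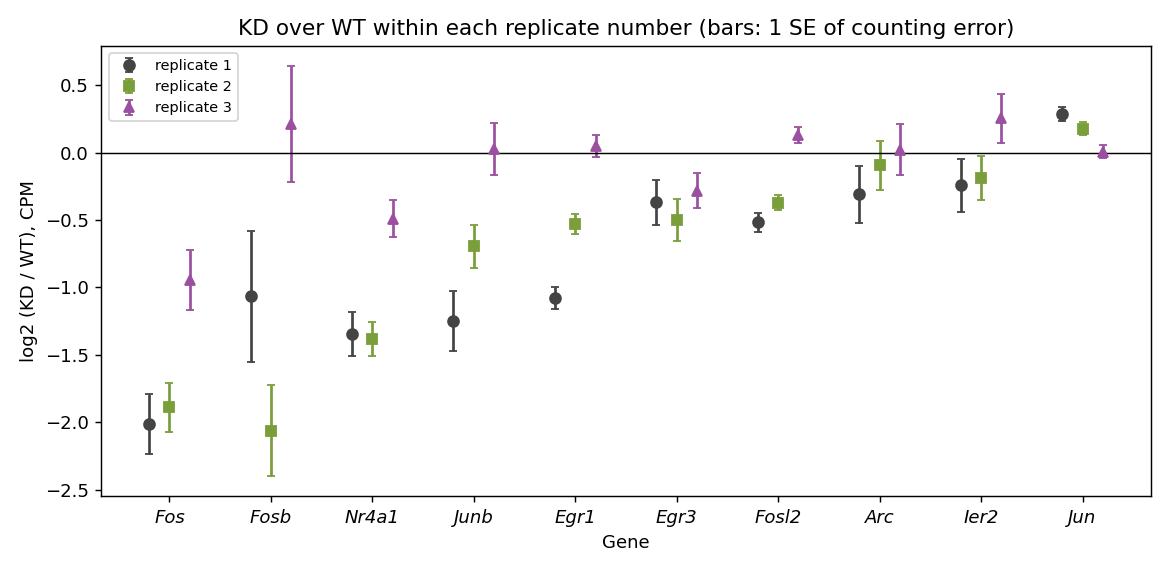
Log2 ratio of KD over WT within each replicate number, with bars of 1 standard error from counting alone. The replicate 3 points are the highest for every gene except Jun, and for Fos they are -2.01, -1.89 and -0.95 in replicates 1, 2 and 3.

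The spread of the genes between replicate libraries, which does not use the difference between KD and WT, was large. That these genes vary between cultures was known when they were chosen, so their spread and library order are given as a description. The biological coefficient of variation estimated by edgeR was 24.5% for Fos, 43.3% for Fosb, 25.7% for Junb, 22% for Nr4a1, 18.4% for Fosl2, 18.9% for Egr3 and 14.2% for Egr1. At the same abundance the trend over all genes was 12.6%, 15.6%, 12.8%, 10.6%, 6.67%, 11.8% and 6.91%. Relative to this trend, these 7 genes varied more than over 95% of all genes tested. Arc, Ier2 and Jun, at 14.1%, 15.7% and 7.43%, were nearer to their trend, though still above at least 81% of all genes. With the replicate block the coefficient was 11.6% for Fos, 19.9% for Fosb and 10.6% for Nr4a1, where the trend was also lower, at 8.27%, 9.55% and 6.17%. Egr3, at 6.7% against 7.5%, and Arc, at 8% against 8.85%, were then below the trend, and the other 8 genes were above it.

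The order of the libraries within a group was shared in part. KD replicate 1 was the lowest KD library for all 10 genes, whereas it was lowest for 35.9% of all genes tested. WT replicate 2 was the highest WT library for 7 of the 10, all except Jun, Egr1 and Egr3, against 31% of all genes. At the other ends the genes were split. The highest KD library was replicate 2 for 4 genes and replicate 3 for 6, against 30% and 34% of all genes, and the lowest WT library was replicate 1 for 6 genes and replicate 3 for 4 (Fos, Fosb, Junb and Egr1), against 34% and 36.3%. The summed neuron markers were likewise lowest in replicate 1 of each group (6180 CPM in WT and 6140 CPM in KD) and highest in replicate 3. So were the glial markers, from 437 to 566 CPM in WT and from 389 to 471 CPM in KD. The GABAergic markers ran the other way, from 984 to 644 CPM in WT and from 1010 to 672 CPM in KD. The progenitor markers were lowest in replicate 1 of WT (1390 CPM) but highest in replicate 1 of KD (1810 CPM). Summed transcripts of 4 Y-linked genes were at 0.864 and 2.2 CPM in the replicate 2 libraries and between 73.9 and 115 CPM in the others. The part of cell composition and of the embryos' sex in these differences was not tested.

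**Figure D4:**
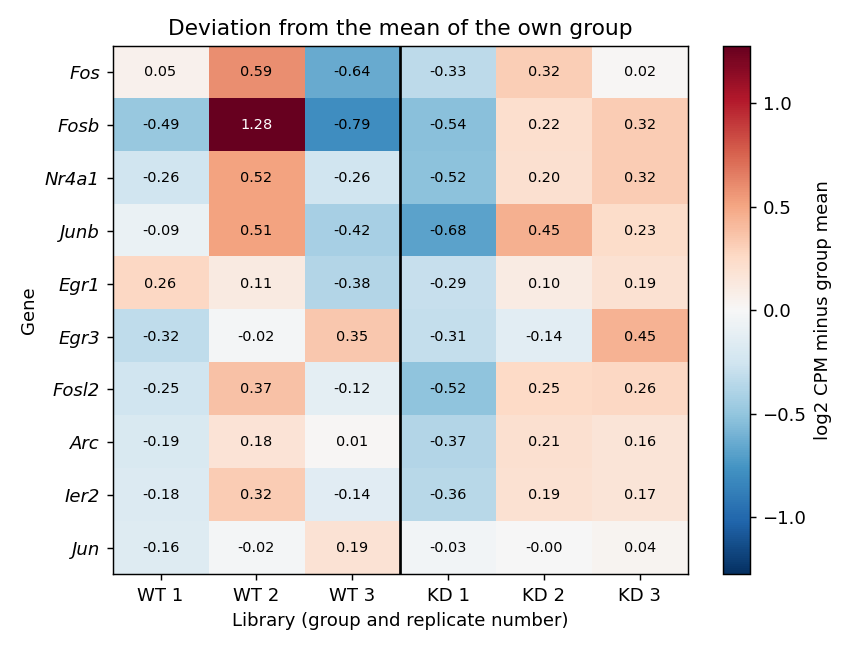
Deviation of each library from the mean of its own group (log2 CPM) for the 10 genes, with blue below and red above that mean and the groups parted by a line. The KD replicate 1 column is below its group mean for every gene, and WT replicate 2 reaches 1.28 for Fosb.

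Genes whose libraries varied in the same way were named by the correlation of their within-group deviations with the average profile of the 10 genes, over 6 libraries, among 381 other genes with at least 5 CPM and a within-group SD of at least 0.3 on the log2 scale. The closest were Rxfp1 (r = 0.98), a receptor for relaxin, Kcnj4 (0.97), an inward rectifier potassium channel, Dmrt2 (0.97), a transcription factor, Klhl14 (0.95), Npas2 (0.95), a clock transcription factor, Prph (0.94), an intermediate filament protein, Arid5a (0.93) and Tmod1 (0.93), which caps actin filaments. These values have no test, since so few libraries give high correlations easily, and 12 of the 381 genes exceeded 0.9. When Fos was left out of the profile, 5 of the 8 names were kept. Within the group itself, Fosl2, Ier2 and Nr4a1 followed the average profile at 0.99 or above and Jun at 0.12. Each of these genes is itself part of that profile, which raises its correlation.

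Other genes of the same response were compared from lists set by function. These lists were written with earlier results of these data known, so their counts are also a description. Among 35 other immediate early genes, 33 were tested, of which 8 were lower and 6 higher, with a median log2 fold change of -0.13. That is 42.4% called, beside 24.0% of all genes. Ier3, a survival factor, was lower at -1.03 (SE 0.18, adjusted P = 0.00527 by edgeR's quasi-likelihood test), and Maff, a small Maf factor, at -0.87 (adjusted P = 0.0304). Per1, a clock gene, fell by 0.58 on the log2 scale (adjusted P = 0.00581). Npas4, a transcription factor of neurons that responds to calcium entry, was at 31.7, 27.8 and 29.6 CPM in WT and 21, 17.7 and 23 CPM in KD, without overlap (log2 fold change -0.53, SE 0.10, adjusted P = 0.00718). In the other direction Pim1, a kinase, was higher at 0.77 (adjusted P = 0.00819), Ier5 at 0.72 (adjusted P = 0.0181), Tiparp at 0.43 (adjusted P = 0.0128) and Ccn1, a matricellular protein, at 0.38 (adjusted P = 0.0425). Ccn1 was not past the threshold with upper quartile scaling, without the filter or by DESeq2 (adjusted P = 0.131), and kept its call in 1 of the 6 fits that left out a library. Leaving out 1 library gave 3 lower (WT replicate 2), 4 lower (KD replicate 1) or 5 lower (WT replicate 3 and, separately, KD replicate 2). It gave 3 higher for WT replicate 1 and 2 higher for WT replicate 2, KD replicate 2 and KD replicate 3, each left out alone. Over all genes, where 1631 were lower and 1646 higher with 6 libraries, calls fell in these fits too. Without WT replicates 1, 2 and 3, each alone, 1131, 797 and 1583 genes were lower and 1151, 779 and 1612 higher. Without KD replicates 1, 2 and 3 the counts were 1077, 849 and 1262 lower and 1098, 884 and 1298 higher.

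Of 13 other AP-1 subunits and partners, 10 were tested, with 30% called beside 24.0% of all genes and a median of -0.13. Maff, which is also in the list above, and Mafg (-0.26, adjusted P = 0.00577) were lower, and Atf7 was higher (0.42, adjusted P = 0.00906). Leaving out WT replicate 2 or 3, or KD replicate 1 or 2, gave 1 lower, where 797, 1583, 1077 and 849 of all genes were lower. With the replicate block the count higher was 3, beside 2539 of all 13669 genes. Jund, the third Jun gene, averaged 141 ± 5.37 CPM in WT libraries and 138 ± 14.3 CPM in KD libraries (SD, n = 3) and had a log2 fold change of -0.03 (SE 0.07). Of 18 genes that limit the response, all tested, 2 were lower and 1 higher (16.7% called, beside 24.0% of all genes), with a median of -0.07. Ier3, counted above, and Spry4 (-0.59, adjusted P = 0.0238), which restrains receptor kinase signalling, were lower, and Spred1 (0.29, adjusted P = 0.00489), an inhibitor of Ras signalling, was higher. Only 1 of the 18 was lower when WT replicate 2, KD replicate 1 or KD replicate 3 was left out. Of all genes 797, 1077 and 1262 were lower in those fits.

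Upstream of the group, 40 kinases and transcription factors that control immediate early genes, here called inducers, were tested. Of these 3 were lower and 5 higher (20% called, beside 24.0% of all genes), with a median of -0.01. Mapk8 (-0.22, adjusted P = 0.0189), which encodes the Jun kinase JNK1, Crtc1 (-0.19, adjusted P = 0.0212), a CREB coactivator, and Mef2d (-0.17, adjusted P = 0.0197) were lower. Their paralogs Mapk9 (0.35, adjusted P = 0.00174), Crtc3 (0.34, adjusted P = 0.0137) and Mef2a (0.32, adjusted P = 0.00321) were higher. The other listed paralogs Mapk10 (-0.035), Crtc2 (-0.011) and Mef2c (-0.256) were not past the threshold. Elk3, an ETS factor that works with SRF, was also higher (0.54, adjusted P = 0.0292). The remaining higher gene was Srf itself (0.27, adjusted P = 0.0179). The replicate block gave 8 lower and 8 higher of the 40, beside 2470 and 2539 of all 13669 genes. On TPM (limma-trend) and without WT replicate 2 (edgeR) the count lower was 0, with 3 and 4 genes at an unadjusted P under 0.05. At the adjusted threshold 1072 of all genes were lower on log2(TPM + 1), 1067 on log2(TPM + 0.5) and 797 without WT replicate 2. The count of inducers lower was 1 without KD replicate 1, beside 1077 of all genes. Leaving out WT replicate 1, WT replicate 2 or KD replicate 2 gave 3 higher, beside 1151, 779 and 884 of all genes.

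Among 24 receptors and channels that start the signal, 3 were lower and 4 higher (29.2% called, beside 24.0% of all genes), with a median of 0.05. The neuregulin receptor gene Erbb4 (-0.56, adjusted P = 0.00882), the NMDA receptor subunit gene Grin1 (-0.44, adjusted P = 7.1e-04) and the calcium channel gene Cacna1a (-0.33, adjusted P = 0.00313) were lower. The growth factor receptor genes Fgfr2 (0.78, adjusted P = 0.00807), Pdgfrb (0.72, adjusted P = 0.0318) and Igf1r (0.55, adjusted P = 0.00484) were higher, as was the AMPA receptor subunit gene Gria2 (0.27, adjusted P = 0.0154). The counts of Grin1 were fractional in some libraries. The replicate block gave 7 lower and 8 higher of the 24, beside 2470 and 2539 of all 13669 genes. The count higher was 7 without WT replicate 3 and 2 without KD replicate 2, beside 1612 and 884 of all genes.

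Of 23 later genes induced by activity or growth factors, 19 were tested, with 5 lower, 0 higher (26.3% called, beside 24.0% of all genes) and a median of -0.20. The block gave 3 higher and leaving out WT replicate 1 gave 1, beside 2539 and 1151 of all genes. By edgeR without the block 0 were higher at an unadjusted P under 0.05, as by DESeq2 and limma-voom at an adjusted P. Vgf, which encodes a secreted neuropeptide precursor, was at 51.6, 65.1 and 29.5 CPM in WT and 11.7, 14.4 and 16.5 CPM in KD, and its log2 fold change of -1.78 (SE 0.26, adjusted P = 0.0024) was near that of Fos. Rcan2, an inhibitor of calcineurin, was lower at -1.19 (adjusted P = 0.00241), the CDK inhibitor gene Cdkn1a at -0.86 (adjusted P = 6.9e-04) and Hbegf, a ligand of the EGF receptor, at -0.39 (adjusted P = 0.0266). Vgf, Rcan2 and Cdkn1a were known to be lower when the list was written, so their calls are no independent evidence. Leaving out WT replicate 2 or KD replicate 1 gave 3 lower, beside 797 and 1077 of all genes.

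**Figure D5:**
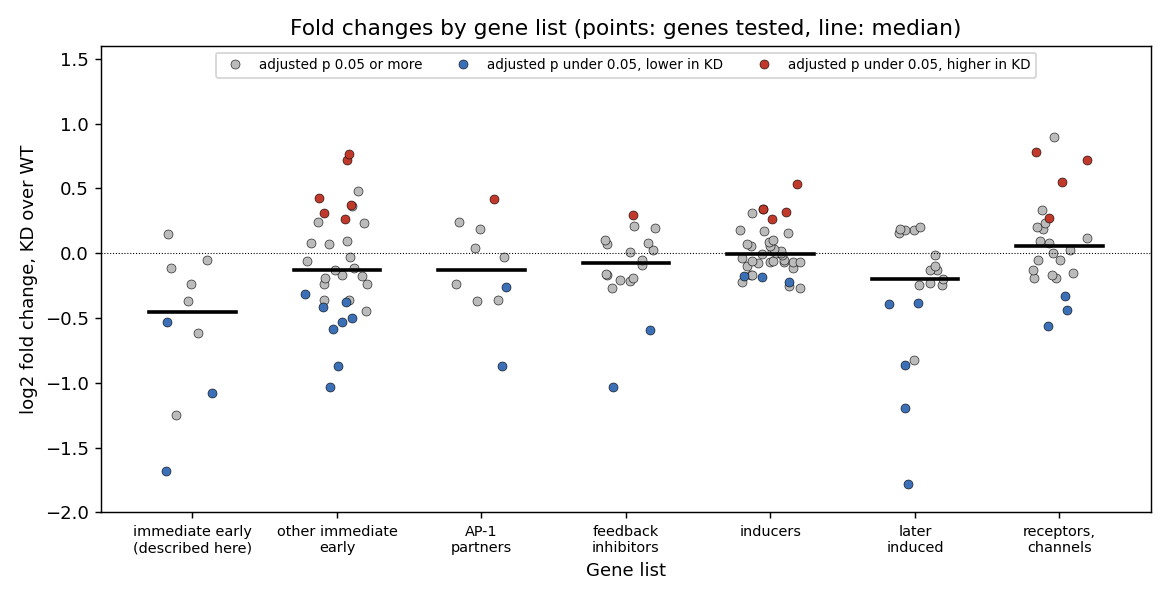
Log2 fold change of KD over WT for every tested gene of 7 lists, with the median as a line, blue for genes lower and red for genes higher at an adjusted P under 0.05 (edgeR) and grey for the rest. The medians run from -0.45 for the immediate early genes described here to 0.05 for receptors and channels.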

How the data were processed

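RNA-seq was analysed from 6 libraries, 3 WT and 3 KD, with groups and replicate numbers taken from the sample titles. Control columns are named Ctrl and were matched to the WT titles by number. The authors purified mRNA and sequenced it on the DNBSEQ platform. The submitters' processing notes name HISAT2 2.2.1, Bowtie2 2.4.5 and RSEM 1.3.1 and the build GRCm38, without their roles. The deposited estimated counts had 2 decimals and were whole in 89.3% to 89.9% of values in a library. The deposited TPM values were scaled by the authors to 1000000 per library and served for comparing genes. FPKM and group means, 12 columns, were not used.

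Estimated counts were rounded and fitted over the whole table with edgeR 4.0.16 (R 4.3.3): filterByExpr (minimum count 10), TMM, quasi-likelihood test of the KD and WT groups, Benjamini-Hochberg adjustment over 13669 genes, threshold 0.05. The design had assumed counts. The test was checked on simulated data with known fold changes. SE was obtained from the log2 fold change and the square root of the F statistic. CPM uses TMM-scaled library sizes. The replicate libraries of a group differed by chi-square values of 4.43 to 8.66 per degree of freedom, so each was counted separately. Deviations from the group means of log2 CPM correlated at 0.35, 0.32 and 0.18 for same-numbered WT and KD libraries and at -0.02 or below for the others, so the numbers pair the libraries, although what a number stands for is not in the labels. The block was an alternative because the study's methods state none. Unless the block is named, SE, calls and adjusted P values ignore this pairing. With it the SE was smaller for every gene described, such as 0.17 against 0.31 for Fos.

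The genes and lists were chosen with earlier results of these data known. Named list genes were those past the threshold with at least 1 CPM, up to 4 in each direction by size, and by likeness the 8 highest correlations. Srf and the list genes not past the threshold were given besides these and are not among the 30 counted below. Alternatives were 3 scalings, 2 filters, DESeq2 1.42.0, limma-voom and limma-trend on TPM (limma 3.58.1), the replicate block, a threshold of 0.01, and leaving out each library or number. Positions are from GENCODE M21.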

Additional observations from a re-analysis of the deposited data

How the results depend on the processing

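All alternatives were planned, and where no cause is given the cause was not tested. In all 20 the fall of Ybx1 passed the threshold, with log2 fold changes from -2.72 to -2.29, and Fos (-1.94 to -1.34) and Nr4a1 (-1.37 to -0.77) kept their direction in all 20. Fosb, Junb, Egr1, Egr3 and Fosl2 stayed below 0 and Jun above 0 in all 20, whereas Arc was above 0 in 1 and Ier2 in 4.

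The replicate block, which pairs the libraries, called 2470 of all 13669 genes lower and 2539 higher. With it 7 of the genes described were lower and 1 higher, as were 8 and 8 inducers and 7 and 8 receptors and channels. Also higher were 3 AP-1 partners and 3 later genes. The block changed no call of the 30 list genes named. An adjusted P under 0.01 by edgeR, a stricter threshold by construction, left 634 genes lower and 629 higher of all 13669. It left 1 gene of the group (Fos), 3 lower and 1 higher other immediate early genes, 1 lower feedback gene and 1 lower AP-1 partner. Also left were 0 lower and 2 higher inducers, 3 lower later genes and 2 higher receptors. On log2(TPM + 1) and on log2(TPM + 0.5), 5 other immediate early genes and 0 inducers were lower, beside 1072 and 1067 of all genes. Under upper quartile scaling 5 inducers were lower, beside 1845 of all genes.

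Over the fits that left out 1 library or both libraries of a number, with fewer samples, the count lower ran from 0 to 3 for the genes described, 0 to 7 for other immediate early genes, 0 to 2 for feedback genes, 0 to 4 for inducers, 1 to 6 for later genes, 0 to 2 for AP-1 partners and 1 to 4 for receptors. The count higher ran from 0 to 1, 0 to 7, 0 to 1, 0 to 6, 0 to 1, 0 to 1 and 0 to 7 in the same order. The lowest counts were without replicate 2, where 93 genes of all were lower and 135 higher at an adjusted P under 0.05. The most calls over all genes in these fits were without WT replicate 3, with 1583 lower and 1612 higher. In the fit without replicate 2, at an unadjusted P under 0.05 by edgeR, 2 of the genes described were lower and 0 higher. The counts lower and higher were 6 and 6 for other immediate early genes, 3 and 1 for feedback genes and 5 and 5 for inducers. They were 1 and 1 for AP-1 partners, 5 and 0 for later genes and 4 and 4 for receptors. The share of all genes at an unadjusted P is not given here, so nothing is read from these counts. Of the 30 list genes named, 19 kept their call without any 1 library and 11 (Maff, Ier5, Ccn1, Spry4, Mapk8, Crtc1, Mef2d, Elk3, Hbegf, Pdgfrb and Gria2) lost it without at least 1, and none changed sign. Ccn1 also lost its call with upper quartile scaling, without the filter and by DESeq2, and Mapk8, Crtc1 and Mef2d on TPM. When Fos was left out of the profile, 5 of the 8 most similar genes were kept.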
